A study of Mus musculus with 2 samples.

Results

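The cells described here were β cells with no UMI of the stress gene Nupr1 and at most 1 UMI of Pdyn. They also had no UMI of Lrrc55, Rerg, Cldn8, Tph1 or Esr1, called the pregnancy genes here. Other genes raised in pregnancy, such as Matn2, were not in the rule and were still detected. A UMI (unique molecular identifier) marks 1 captured RNA molecule. A β cell was a cell that passed the filter and drew at least 20% of its UMIs from the insulin genes Ins1 and Ins2 and under 1% from the other islet hormones Gcg, Sst, Ppy and Pyy together. It was selected if it held at least 10000 UMIs, no UMI of Nupr1, Lrrc55, Rerg, Cldn8, Tph1 or Esr1, and fewer than 2 UMIs of Pdyn. The rule selected 993 cells, out of 2801 β cells of that depth, 7765 cells passing the filter and 10538 barcodes. The remaining 1808 β cells of that depth are called the other β cells.

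The islets came from wild-type female C57BL/6J mice. Multipara mice had 3 consecutive pregnancies starting at 9 weeks of age and were sampled 3 weeks after the last delivery, and virgin controls of matching age had 0 pregnancies. Islets were dissociated with trypsin and 1 library per group was made with 10x Chromium 3′ chemistry. The labels do not give the number of mice in a library. A figure legend of the study gives an n of at least 2 per group for these data, without saying whether mice were pooled. Both groups lack a second library, so every difference compares these 2 libraries and has no replicate check.

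Pregnancy is a natural state of high insulin demand. Placental lactogens and prolactin act through the prolactin receptor on β cells, which then multiply and switch on a set of genes that includes Tph1, the enzyme for serotonin synthesis. Insulin is folded in the endoplasmic reticulum (ER), and a heavy folding load induces chaperones through the unfolded protein response. Its PERK branch feeds into the integrated stress response, which amino acid shortage also sets off. That response acts through Atf4 on genes such as Ddit3, Atf5 and Nupr1. The question asked of the selected cells was which differences between the multipara and virgin libraries remained where Nupr1 and the pregnancy genes were not detected.

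Sequencing gave 94853806 UMIs over 5463 virgin barcodes, and 82503776 over 5075 multipara barcodes. The libraries shared 7 barcodes, of which 0 belonged to selected cells. In the virgin library 1 selected cell held 7234 of the 7778 Igkc (immunoglobulin light chain) UMIs of all selected cells. Without that cell Igkc was at 23.0 CPM (UMIs of a gene per 1000000 UMIs), against 3.39 CPM in the multipara cells, and in alpha cells it was at 31.7 and 3.48 CPM. Globin genes showed the opposite order, with 1.18 CPM in virgin and 14.0 CPM in multipara selected cells. Endothelial markers were at 19.7 and 18.0 CPM, with 84.4% of the multipara UMIs in 1 cell, and macrophage markers at 52.8 and 45.0 CPM, with 80% of the multipara UMIs in 1 cell. T cell and mesenchymal markers were at or under 2.24 CPM, and the defining T cell markers Cd3e, Cd3d and Cd3g were at 0 in the multipara cells. Acinar markers were at 0.506 and 4.42 CPM, with 20 of the 30 multipara UMIs in 1 cell. Duct markers were at 108 and 96.0 CPM, with Mmp7 at 0 in both, and the delta markers (151 and 130 CPM) and PP markers (409 and 427 CPM) include hormones that the rule limits. The part of these RNAs in the differences was not tested. An alternative chosen after seeing the data used globin, endothelial, macrophage, T cell, B cell, mesenchymal and acinar genes, called non-endocrine markers here. Cells with 10 or more UMIs of these, Igkc not counted, were left out, as was the β cell with most Igkc in each library. Duct, delta and PP markers did not count. This kept 744 and 216 selected cells and is given beside the counts.

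The selected cells expressed all 8 β cell markers in both libraries. The 774 virgin cells had a median of 30091 UMIs and 3868 genes, and the 219 multipara cells had 31244 UMIs and 3882 genes. Insulin mRNA made up a median of 58.5% of the UMIs in virgin cells and 59.1% in multipara cells. Ins1 stood at 160530 and 170883 CPM, Ins2 at 423270 and 419129 CPM. Mafa, a transcription factor of mature β cells, was at 317 CPM in virgin and 277 CPM in multipara cells. Ucn3, a peptide of mature β cells, was at 218 and 214 CPM. In alpha cells Mafa was at 4.78 and 8.54 CPM and Ucn3 at 2.61 and 3.60 CPM. Insulin entered the rule and is no check of the label, while Mafa and Ucn3, which did not enter it, were far above their alpha cell levels in both libraries.

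The selected cells made up 51.3% of the virgin β cells of that depth (774 of 1509, 95% Clopper-Pearson interval 48.7 to 53.8) and 17.0% of the multipara ones (219 of 1292, 14.9 to 19.1). These shares follow from the rule and cover counting error only, as do all intervals here. When every cell was first thinned to 10000 UMIs, they were 66.8% and 33.6%. Nupr1 removed most cells, since 40.8% of virgin and 70.8% of multipara β cells had at least 1 UMI of it. Among alpha cells thinned to 10000 UMIs, 1.65% and 4.55% had one, at a smaller depth than that of the β cell shares. At least 1 UMI of Lrrc55, Rerg, Cldn8, Tph1 or Esr1 was found in 1.06% of virgin β cells (0.607 to 1.72), and in 23.6% of multipara β cells (21.3 to 26.0). Cldn8, a tight junction protein, was the most frequent of these in the multipara library (8.13%), followed by Rerg (6.50%), Lrrc55 (5.73%), Esr1 (4.49%) and Tph1 (2.55%). Pdyn, the prodynorphin gene, reached 2 UMIs in 9.54% of virgin and 15.9% of multipara β cells.

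**Figure D1:**
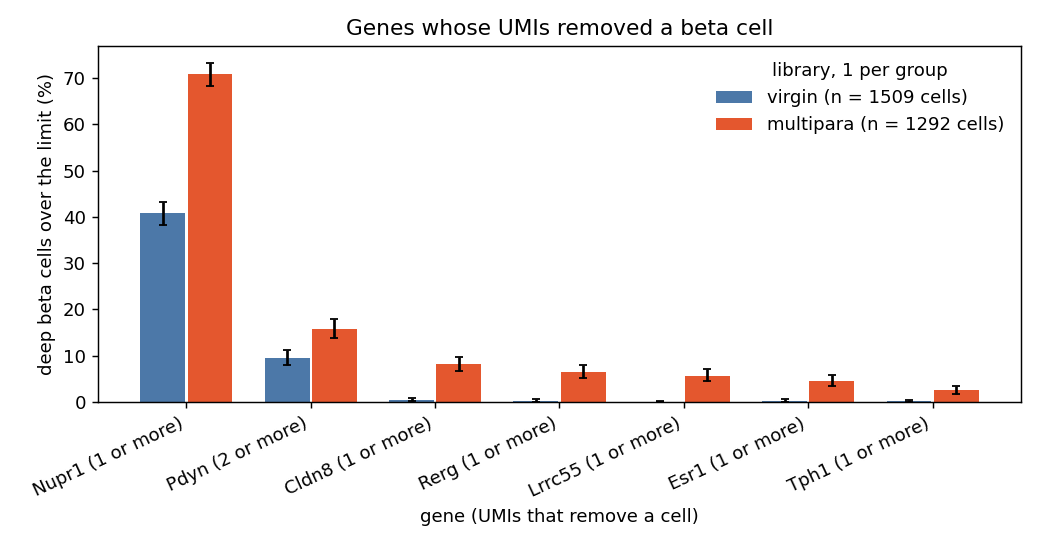
Percent of β cells with at least 10000 UMIs that were removed by each gene (y axis) in the virgin (blue, 1509 cells) and multipara (red, 1292 cells) library, with 95% Clopper-Pearson intervals. Nupr1 removed 40.8% and 70.8% of the cells, and each pregnancy gene removed a larger share in the multipara library.

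At the limits of the rule, the shallowest selected cells had 10381 and 10576 UMIs, and 142 virgin and 98 multipara cells that met the gene limits were too shallow, the deepest of them with 9860 and 9452 UMIs. Among the selected cells, 85 virgin and 34 multipara cells held 1 UMI of Pdyn. A single UMI of Nupr1 and no other limit kept out 113 virgin and 50 multipara cells.

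No UMI of a gene in a cell does not show that the gene was silent there. The UMIs of every β cell were therefore split at random into equal parts, the rule was applied to one part and the other part was read. Nupr1 in the part that was read of the 905 virgin cells so chosen was at 9.03 CPM (7.53 to 10.7), and in the 328 multipara cells at 20.1 CPM (16.4 to 24.4). In the cells not chosen it was at 197 and 321 CPM, and in all alpha cells at 2.10 and 4.61 CPM. Nupr1 RNA was thus still found in chosen cells, above the alpha cell level in both libraries, and it was higher in the multipara cells (log2 ratio 1.16, 0.77 to 1.54). Among the pregnancy genes in the chosen cells, Cldn8 was at 0.284 CPM in virgin and 3.09 CPM in multipara cells, Rerg at 0.0711 and 1.74 CPM, and Lrrc55 at 0 and 1.35 CPM, where 0 UMIs in the virgin cells allow up to 0.262 CPM. The chosen multipara cells thus still held low amounts of the same pregnancy genes. The rule was here applied to fewer UMIs per cell, and a chosen cell with a read UMI of Nupr1 or of these genes was not a selected cell. These levels are therefore not those of the selected cells. Nupr1 was at 4.92 CPM in virgin and 14.0 CPM in multipara cells when 75% of the UMIs chose the cells. The part of free RNA was not tested.

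The main comparison summed the UMIs of the selected cells per library. Genes were compared where the mean of both libraries reached 50 CPM. Of 1226 such genes, 10 were at least 1.5-fold higher in the multipara cells (0.816% of the genes compared) and 8 at least 1.5-fold lower (0.653%). The median log2 ratio of all these genes was −0.01, and 47% had a ratio above 0. Counting error alone left 0 outside the interval of 539 of them (44%), so the size of a difference, not its interval, was used to name genes. Without the cells rich in non-endocrine markers, 10 genes were higher and 6 lower. With Ins1, Ins2 and Iapp left out of the total, which lifts more genes over 50 CPM, 20 were higher and 16 lower, and 14 and 10 of those in the other cells remained.

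In the other β cells, 20 genes were past that fold (1.62% of 1233 compared), 9 higher in multipara (0.73%) and 11 lower (0.892%). Selected and other cells come from the same pair of libraries, so anything that set the libraries apart enters both. Of the 9 higher genes, 5 were past the same fold in the selected cells, namely Fmo1, Hmgcs1, Fkbp11, Hopx and Zfp36, and 4 were not. The 4 were Nupr1, which the rule set to 0, Chd7 (a chromatin remodeler, log2 ratio 0.50 in selected and 0.64 in other cells), Rasd1 (0.33 and 0.59) and Npas4 (0.42 and 0.59). All 8 measured genes of the 9 kept a ratio above 0 in the selected cells. Of the 11 lower genes, 6 were past the fold in the selected cells, namely Pde5a, Defb1, Marcks, Gcg, Igkc and Ighg2c, and 10 had a ratio below 0. Without the cells rich in non-endocrine markers, 3 lower genes were past the fold in both groups of cells. Ighg2c rested on 25 virgin and 4 multipara UMIs in the selected cells. The exception in sign was Pyy, with a log2 ratio of 0.11 in selected and −0.79 in other cells, but its sign in the selected cells held under only 11 of 16 alternative settings (range −0.40 to 0.39). These genes outside the naming rule were named because the counts are small.

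Fmo1 had the highest ratio among the genes compared. It encodes a flavin-containing monooxygenase, an ER enzyme, and lies on chromosome 1 at 162829561 to 162866610 (minus strand, GENCODE M21, GRCm38). The selected cells held 26.5 CPM in the virgin library and 99.97 CPM in the multipara library (log2 ratio 1.92, 1.76 to 2.08). In the other cells it was at 19.1 and 89.4 CPM (2.23, 2.09 to 2.37). When each cell was thinned to 10000 UMIs, 18.1% of virgin and 46.6% of multipara selected cells had a UMI of Fmo1 (34.8% and 70.3% before thinning), against 1.01% and 1.66% of alpha cells at the same depth. The difference was thus spread over many cells, and the cell with most Fmo1 held 3.54% of the multipara UMIs.

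Matn2, an extracellular matrix protein that was among the pregnancy genes of the study but not in the rule, was at 13.6 CPM in virgin and 31.3 CPM in multipara selected cells (log2 ratio 1.20, 0.94 to 1.46). It lay under the 50 CPM limit. After thinning, 12.9% and 24.2% of the selected cells had a UMI of it, against 0.76% and 1.66% of alpha cells. Lars2, a mitochondrial leucyl-tRNA synthetase, was at 31.2 and 31.1 CPM (log2 ratio 0.00). Prlr, the prolactin receptor, was at 400.1 CPM in virgin and 500.3 CPM in multipara selected cells (0.32, 0.26 to 0.38), under the fold. Of 18 other pregnancy and lactogen signalling genes with at least 10 UMIs, 8 had a ratio above 0, with a median of −0.05, the same as that of all 12508 such genes (−0.05, 41.9% above 0).

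**Figure D2:**
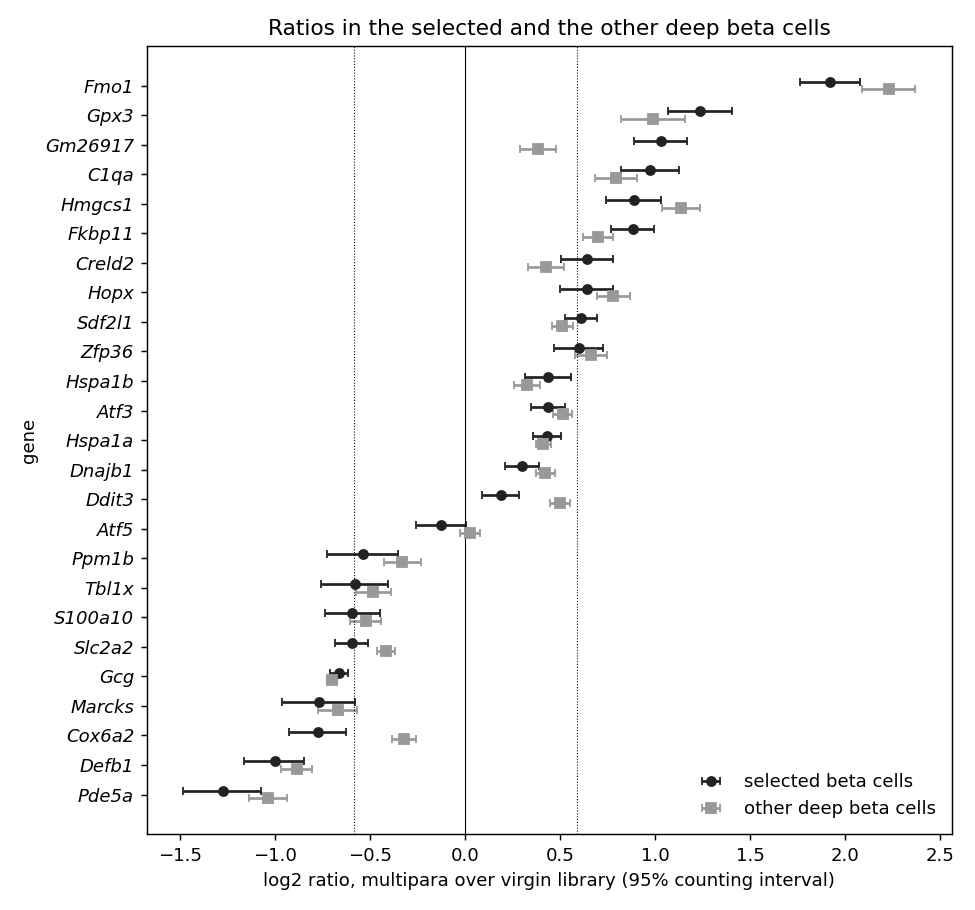
Log2 ratio of the multipara over the virgin library (x axis) for 25 genes in the selected β cells (black circles) and the other β cells (grey squares), with 95% counting intervals. Dotted lines mark 1.5-fold. Fmo1 is the highest in both groups of cells and Pde5a the lowest, while Ddit3 lies at 0.18 in selected and 0.50 in other cells. Igkc is not drawn, since 1 cell held most of its UMIs.

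Among genes of protein folding in the ER, Fkbp11, Sdf2l1 and Creld2 passed 1.5-fold in the selected cells, and of these only Fkbp11 did so in the other cells too. Fkbp11, a peptidyl-prolyl isomerase of the ER (chromosome 15, 98724366 to 98728198, minus strand), was at 75.1 CPM in virgin and 138 CPM in multipara selected cells (log2 ratio 0.88, 0.764 to 0.995). Sdf2l1, a partner of the ER chaperone BiP (chromosome 16, 17130138 to 17132383, minus strand), was at 161 and 246 CPM (0.61, 0.52 to 0.69). Creld2, an ER protein that responds to ER stress (chromosome 15, 88819646 to 88826683, plus strand), was at 59.3 and 92.3 CPM (0.64, 0.50 to 0.78). In the other multipara cells they were somewhat lower, at 122, 213 and 74.1 CPM. The log2 ratios in the other cells were 0.70 for Fkbp11, 0.51 for Sdf2l1 and 0.42 for Creld2. Sdf2l1 and Creld2 lay close to 1.5-fold and passed it under 12 and 13 of 16 alternative settings, Fkbp11 under all 16.

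The whole ER list differed little, but nearly all its genes in one direction. Of its 37 genes at 50 CPM or more, 36 had a ratio above 0, against 47% of all genes, and 3 passed 1.5-fold upwards and 0 downwards. The median log2 ratio was 0.19 in the selected cells over all 50 list genes measured, and 0.20 in the other cells. Hspa5, which encodes BiP, was at 1284 CPM in virgin and 1463 CPM in multipara selected cells (log2 ratio 0.19, 0.16 to 0.22). Manf, a protein secreted under ER stress, was at 511 and 644 CPM (0.33, 0.28 to 0.38). The exception was Canx, the lectin chaperone calnexin, at 198 and 191 CPM (−0.05, −0.14 to 0.04). Summed over the list, it took 1.02% of the UMIs in virgin and 1.18% in multipara selected cells, and 0.994% and 1.16% in the other cells.

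The stretches of DNA before the start sites of these 3 genes, and of Nupr1 for comparison, are printed because the sequence that the transcription factor ATF6 is known to recognise, the ER stress response element, consists of CCAAT and CCACG set 9 bases apart. They come from RefSeq on GRCm38.p6 and give the 250 bases before the start, 5′ to 3′ on the gene's strand, with each CCAAT or CCACG on either strand in capitals, or for Nupr1 each TGATGNAA, the core that ATF4 with a C/EBP partner is known to bind. Fkbp11 has 2 starts listed, of which the one with more matches is shown.

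Creld2 (chr15:88819396-88819645, plus strand): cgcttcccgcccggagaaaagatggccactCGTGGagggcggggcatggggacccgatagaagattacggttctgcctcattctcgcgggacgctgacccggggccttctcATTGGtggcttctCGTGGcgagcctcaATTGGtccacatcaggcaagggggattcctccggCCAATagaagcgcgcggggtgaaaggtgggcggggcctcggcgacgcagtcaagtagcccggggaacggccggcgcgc
Sdf2l1 (chr16:17132384-17132633, minus strand): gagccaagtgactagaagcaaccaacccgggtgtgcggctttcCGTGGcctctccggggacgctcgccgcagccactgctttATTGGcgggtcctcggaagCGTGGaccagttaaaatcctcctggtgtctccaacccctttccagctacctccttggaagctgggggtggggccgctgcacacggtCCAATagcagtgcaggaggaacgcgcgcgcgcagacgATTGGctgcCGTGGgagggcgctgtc
Fkbp11 (chr15:98727628-98727877, minus strand): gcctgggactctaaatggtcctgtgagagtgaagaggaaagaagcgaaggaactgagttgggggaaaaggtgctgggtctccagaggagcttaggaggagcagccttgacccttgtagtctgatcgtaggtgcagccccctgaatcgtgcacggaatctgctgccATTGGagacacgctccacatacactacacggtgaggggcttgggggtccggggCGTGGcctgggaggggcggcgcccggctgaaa
Nupr1 (chr7:126625471-126625720, minus strand): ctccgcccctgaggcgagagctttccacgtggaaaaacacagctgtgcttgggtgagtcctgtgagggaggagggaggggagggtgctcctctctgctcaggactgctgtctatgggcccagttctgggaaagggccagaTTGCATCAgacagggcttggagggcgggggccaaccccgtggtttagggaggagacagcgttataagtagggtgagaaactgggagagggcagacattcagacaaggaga

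The full element, searched on both strands in the 300 bases from 250 before to 50 after each start, was found in the promoters of 0.137% of 27025 genes. Creld2 held it, and Sdf2l1 and Fkbp11 held CCAAT and CCACG without that spacing. Of the 29 genes of the ER list at 50 CPM with a promoter in the table, 7 held it: Hspa5, Hsp90b1, Calr, Dnajc3, Canx, Pdia6 and Creld2. CCAAT alone occurred in 41.1% and CCACG alone in 35.5% of all genes. TGATGNAA, marked once in the Nupr1 promoter, was held by 4.51% of genes and by 0 of the 7 promoters available for the 10 highest genes. A match is a description of letters only. Fmo1 and C1qa were not in the promoter table.

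The stress genes that the study had chosen on these samples were split. They are no independent evidence of direction. Nupr1 was 0 by the rule. Of the other 8, Fkbp11 and Sdf2l1 passed 1.5-fold, 5 lay above 0 under that fold and Atf5 lay below 0, with a median log2 ratio of 0.43 in selected and 0.46 in other cells. Hspa1a, Hspa1b and Dnajb1, which encode heat shock proteins, had log2 ratios of 0.43, 0.44 and 0.30, and Atf3, a stress-induced transcription factor, 0.44. Atf3 was at 154 and 208 CPM in the selected β cells but at 1384 and 1344 CPM in alpha cells.

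Ddit3 and Atf5, both targets of the integrated stress response, had the lowest ratios of the 8 in the selected cells. Ddit3, which encodes the transcription factor CHOP, was at 150.5 CPM in virgin and 171 CPM in multipara selected cells (log2 ratio 0.18, 0.09 to 0.28) and at 161 and 228 CPM in the other cells (0.50, 0.44 to 0.55). Atf5 was at 96.8 and 88.6 CPM in the selected (−0.13, −0.26 to 0.00) and at 192 and 196 CPM in the other cells (0.02, −0.03 to 0.08). After thinning, a UMI of Ddit3 was found in 65.0% of virgin and 60.7% of multipara selected cells, while the share with 3 or more was 18.6% and 21.5%. In the held-out part of the UMIs, the ratio of Ddit3 was 0.39 (0.28 to 0.50) in the chosen and 0.46 (0.37 to 0.54) in the other cells, a smaller gap between the groups of cells than when the rule used all UMIs. The ratio of Ddit3 was also 0.39 when the rule followed thinning, and 0.069 when Pdyn had to be at 0 UMIs. Atf5 stayed near 0 there (−0.04 in chosen cells).

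**Figure D3:**
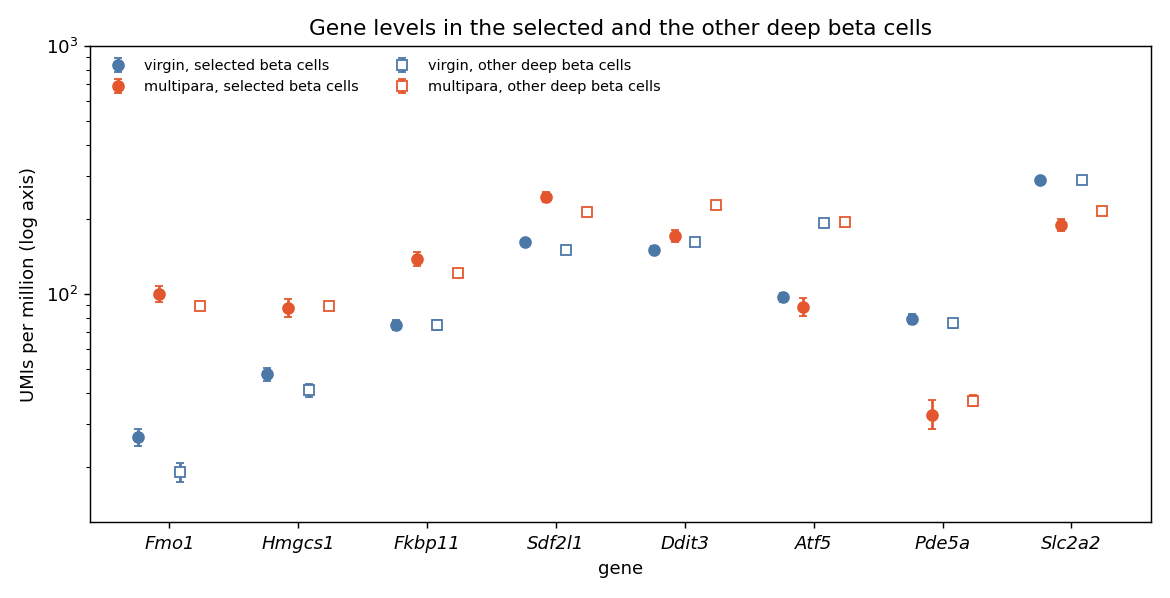
Level in CPM (log axis) of 8 genes in virgin (blue) and multipara (red) selected β cells (filled circles) and other β cells (open squares), with 95% Poisson intervals. Fmo1, Hmgcs1, Fkbp11 and Sdf2l1 are higher in multipara in both groups of cells, Pde5a and Slc2a2 are lower, and Atf5 is about equal between libraries but lower in the selected cells.

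Of the 31 measured genes of the integrated stress response, 14 had a ratio above 0 and the median was −0.04 in the selected and −0.02 in the other cells, near the values of all genes (41.9% above 0, median −0.05). The list was lower in the selected than in the other cells within both libraries (median log2 ratio −0.47 in virgin and −0.46 in multipara). Cells were chosen by Nupr1, a gene of the same response, so this is a description with no test. Over all genes at 50 CPM, 2 were 1.5-fold higher and 2 lower in selected than in other virgin cells (0.163% each), and 5 higher (0.408%) and 3 lower (0.245%) in the multipara library. Atf5 was the lowest of them (−0.99 and −1.14), and Sars, a seryl-tRNA synthetase, was among the 5 lowest (−0.47 and −0.52). The 21 heat shock genes had a median of 0.01.

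Hmgcs1, the cytosolic enzyme that makes HMG-CoA for cholesterol synthesis (chromosome 13, 119690379 to 119708260, plus strand), was at 47.4 CPM in virgin and 87.7 CPM in multipara selected cells (log2 ratio 0.89, 0.74 to 1.03). In the other cells it was at 40.9 and 89.7 CPM (1.13). All 26 genes of the cholesterol list had a ratio above 0 in the selected cells, against 41.9% of all genes with at least 10 UMIs, with a median of 0.33, and the median was 0.20 in the other cells. Of the 5 at 50 CPM or more, only Hmgcs1 passed 1.5-fold. Msmo1, a sterol oxidase, was at 66.2 CPM in virgin and 84.3 CPM in multipara selected cells (0.35, 0.21 to 0.49), and Sqle, squalene epoxidase, at 52.4 and 60.6 CPM (0.21, 0.05 to 0.37).

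The other higher genes had mixed roles. Hopx, an atypical homeodomain protein, was at 57.2 CPM in virgin and 89.1 CPM in multipara selected cells (log2 ratio 0.64), and Zfp36, which promotes decay of AU-rich mRNAs, at 70.8 and 107 CPM (0.60). C1qa, a chain of complement C1q, was at 40.9 and 80.1 CPM (0.97, 0.82 to 1.12). The other C1q chains, C1qb and C1qc, were at 0.93 and 0.74 CPM and at 0.55 and 0.29 CPM, and alpha cells held C1qa at 55.8 and 65.3 CPM. Gpx3, a secreted glutathione peroxidase, was at 30.9 and 72.7 CPM (1.23, 1.07 to 1.40), with alpha cells at 1018 and 1186 CPM. Gm26917, an unnamed locus, had a ratio of 1.03, but 1 multipara cell held 153 of its 644 UMIs, and without the top cell of each library the ratio was 0.65. Chgb, which encodes the granule protein chromogranin B, was at 736 and 1088 CPM (0.56, 0.52 to 0.60), just under the fold.

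**Figure D4:**
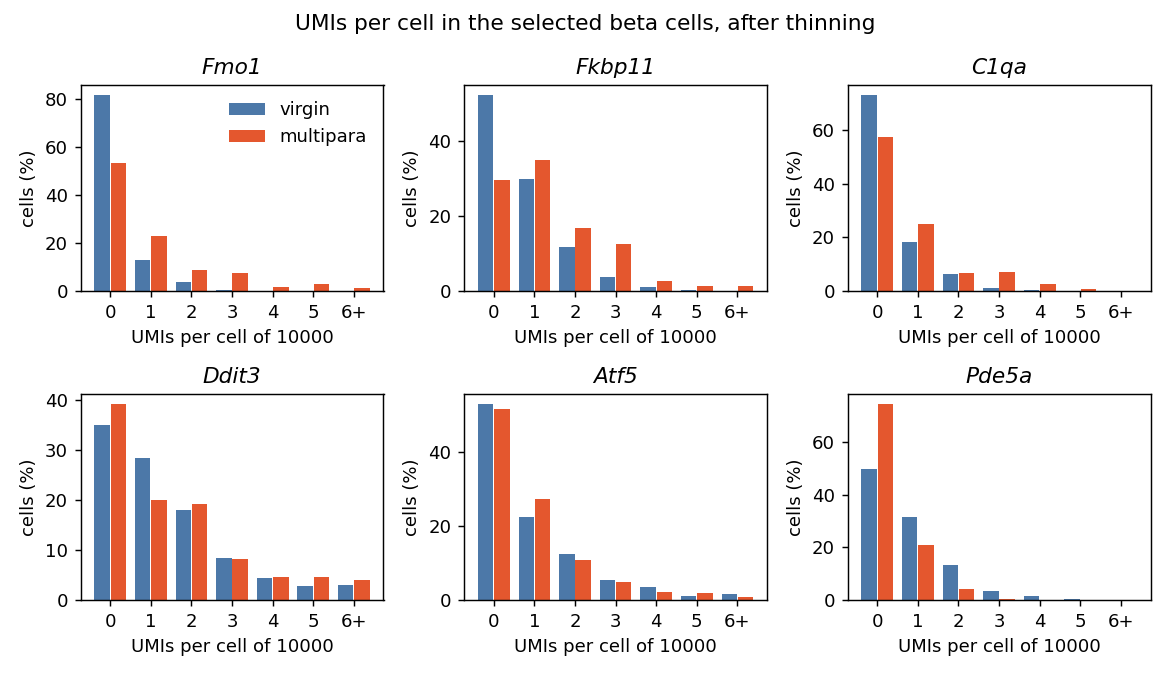
Percent of selected β cells (y axis) by UMIs of a gene per cell after thinning to 10000 UMIs (x axis, 6+ is 6 or more), in the virgin (blue, 774 cells) and multipara (red, 219 cells) library. Cells without a UMI of Fmo1 were 81.9% in virgin and 53.4% in multipara, those without Ddit3 35.0% and 39.3%, and those without Pde5a 49.7% and 74.4%.

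On the lower side, Pde5a had the lowest ratio of the genes whose UMIs did not come from 1 cell. It encodes a phosphodiesterase for cyclic GMP and lies on chromosome 3 at 122728947 to 122859374 (plus strand). It was at 79.0 CPM in virgin and 32.6 CPM in multipara selected cells (log2 ratio −1.28, −1.485 to −1.075) and at 76.1 and 37.1 CPM in the other cells (−1.04). Defb1, a defensin, was at 110 and 54.9 CPM (−1.005, −1.165 to −0.848), and Marcks, a substrate of protein kinase C, at 65.9 and 38.6 CPM (−0.77, −0.96 to −0.58). All 3 were past the fold under each of 16 alternative settings.

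Cox6a2, a muscle-type subunit of cytochrome c oxidase, was at 108 CPM in virgin and 63.1 CPM in multipara selected cells (log2 ratio −0.78, −0.93 to −0.63), and at 146 and 117 CPM in the other cells (−0.32, −0.39 to −0.26). Slc2a2, the glucose transporter GLUT2 of mouse β cells, was at 288 and 190 CPM in the selected (−0.60, −0.69 to −0.51) and at 289 and 216 CPM in the other cells (−0.42). Its ratio lay at the fold, which it passed under 8 of 16 alternatives. S100a10, a partner of annexin A2, was at 104 and 68.7 CPM (−0.60), past the fold under 10 of 16. Gcg, the glucagon gene, which the rule limits, was at 909 and 573 CPM in the selected cells, with the 7 alpha cell markers together at 1743 and 1160 CPM, and a UMI of Gcg was found in 99.9% and 99.5% of thinned selected cells. Alpha cells made up 790 virgin and 483 multipara cells of that depth, and the part of free RNA in the Gcg ratio was not tested. Igkc, with the cell named above, had a ratio of −6.60, and −2.89 without the top cell of each library.

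Of 29 measured genes that define β cells, 8 had a ratio above 0, against 41.9% of all genes with at least 10 UMIs. Their median log2 ratio was −0.09 in the selected and in the other cells, close to the median of all genes (−0.05), and Slc2a2 alone passed the fold. Slc30a8, the zinc transporter of insulin granules, was at 519 CPM in virgin and 373 CPM in multipara selected cells (−0.48, −0.54 to −0.41). In alpha cells Slc30a8 was at 527 and 458 CPM. Mafa had a ratio of −0.19 (−0.27 to −0.12) in the selected and 0.02 (−0.02 to 0.05) in the other cells, while Ucn3 was at −0.02 and 0.03. Of 30 secretory granule genes, 15 had a ratio above 0.

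**Figure D5:**
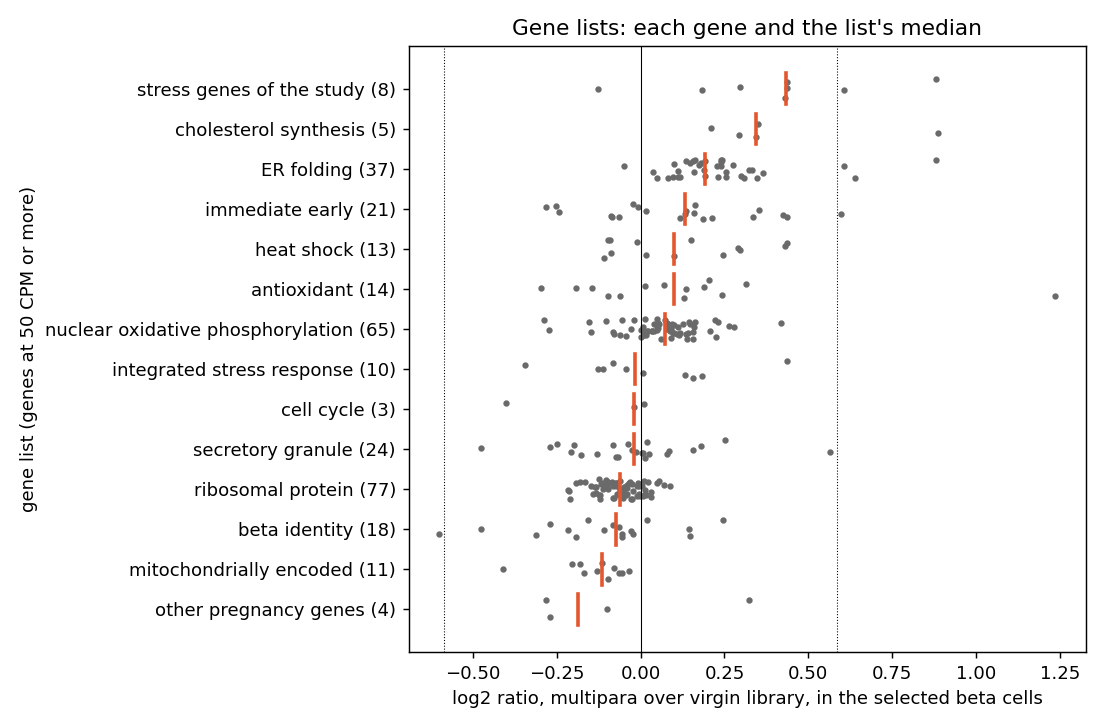
Log2 ratio of the multipara over the virgin library in the selected β cells (x axis) for the genes at 50 CPM or more of 14 lists (points, number of genes in parentheses) with the median of each list (red bar). Dotted lines mark 1.5-fold. In the ER folding list 36 of 37 genes lie above 0, and in the mitochondrially encoded list 0 of 11 do.

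The 74 measured nuclear genes of oxidative phosphorylation had a median log2 ratio of 0.05, with 56 above 0. Of the 65 at 50 CPM or more, 0 passed the fold. Cox6a2, described above as past the fold downwards, was not in this list. The 13 mitochondrially encoded genes were all below 0, with a median of −0.12, and the median mitochondrial share was 3.53% in virgin and 3.29% in multipara selected cells (4.81% and 4.13% in the other cells). This list turned to a median of 0.07 when cells with a UMI of Matn2 or Fmo1 were also left out. Of 78 ribosomal protein genes, 13 were above 0, with a median of −0.06. The 36 immediate early genes with a ratio had a median of −0.01 (0.15 in the other cells), and the 31 antioxidant genes 0.07.

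Cell cycle genes were sparse. Of 19 genes with UMIs in both libraries 3 had a ratio above 0, against 41.9% of all genes. Another 4 had 0 UMIs in the 219 multipara cells, which hold far fewer UMIs in all than the 774 virgin cells. The median log2 ratio was −0.37, and it turned to 0.0572 when cells with a UMI of Matn2 or Fmo1 were also left out. Mki67, a marker of dividing cells, had 12 UMIs in the virgin selected cells, 8 of them in 1 cell. It had 0 in the multipara ones, which allows up to 0.544 CPM. The virgin level in CPM lay under that limit, so these counts do not show a difference. Ccnd2, a cyclin of dividing β cells, was at 482 CPM in virgin and 365 CPM in multipara selected cells (log2 ratio −0.40, −0.46 to −0.34), while Ccnd1 was at 61.8 and 62.2 CPM. The 15 cycle inhibitor and senescence genes had a median of −0.04. Cdkn2a rested on only 15 and 8 UMIs, which is 0.633 CPM for virgin and 1.18 CPM for multipara selected cells. Its log2 ratio was 0.90, with an interval that took in 0 (−0.55 to 2.23). For the other cells the Cdkn2a ratio was −0.39 (−1.19 to 0.43), so counts this small do not settle its direction.

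In place of summed UMIs, single cells thinned to 10000 UMIs gave the spread. The median of the 8 stress genes together was 9 UMIs in virgin selected cells (10th to 90th percentile 4 to 20.7) and 13 in multipara ones (5 to 28), against 12 and 16 in the other cells. The ER list gave a median of 99 UMIs (74 to 134) in virgin and 117 (88 to 154.2) in multipara selected cells, against 96 and 113 in the other cells. The ranges of cells overlapped widely in both lists.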

How the data were processed

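The authors deposited raw UMI counts per gene and barcode for 1 virgin and 1 multipara library. Cell Ranger 3.1.0, Seurat 3.0 and GRCm38 are named in the submitters' processing notes. Barcodes were kept if they had over 200 but under 6000 genes, under 60000 UMIs, and a mitochondrial share below 10%. The members and gene lists were chosen with earlier results of these data known. UMIs were summed per library and scaled to CPM, the UMIs of a gene per 1000000 UMIs. With 1 library per group no test was run, cells were not used as replicates, and a fold of 1.5 at a mean of at least 50 CPM named differences.

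Intervals were exact 95% Poisson (CPM), Clopper-Pearson (shares) and conditional binomial (log2 ratios) intervals, which cover counting error only. Alpha cells, the background type, had at least 5% Gcg, under 5% insulin and under 1% Sst and Ppy UMIs and at least 10000 UMIs. Doublets called with Scrublet (61 virgin and 44 multipara cells, 1.39% and 1.30%) were kept, and left out as an alternative. The named genes were the 9 stress genes and the pregnancy, cycle and β cell genes fixed by name, the 10 highest and 10 lowest log2 ratios, up to 3 at each end of each of 15 lists, the 5 largest differences of ratio each way between selected and other cells, and the 5 highest and 5 lowest selected over other levels. Of these, the ones that a result turned on were described. Calculations used python 3.11.15, numpy 2.4.6, scipy 1.17.1, pandas 2.3.3, scanpy 1.11.5, matplotlib 3.10.9 and edgeR 4.0.16 (TMM factors only) and were checked on simulated counts. Gene positions came from GENCODE M21 (31011 of 31053 identifiers found). Results were recomputed under 21 other settings, and under 2 more chosen after seeing the data.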

Additional observations from a re-analysis of the deposited data

Results flagged for a closer look

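Of 1226 genes compared, 9 had counting intervals on opposite sides of 0 in the selected and the other β cells. With 1 library per group the difference between the groups of cells was not tested, and the size was under 1.5-fold in the selected cells for all 9. Pyy, the peptide YY gene, whose UMIs entered the rule, had a log2 ratio of 0.11 in the selected and −0.79 in the other cells, from 157 CPM in virgin and 170 CPM in multipara selected cells and from 111 and 64.0 CPM in the other cells. Its sign in the selected cells held under 11 of 16 alternative settings, with ratios from −0.40 to 0.39. Junb, an immediate early transcription factor, was at −0.25 and 0.04. Ube2k, a ubiquitin-conjugating enzyme, was at 0.20 and −0.13, Rtn4, an ER-shaping reticulon, at 0.13 and −0.08, and Lmna, the lamin A gene, at −0.13 and 0.09. Mt1, a metallothionein, was at −0.0617 and 0.09, and Malat1, a nuclear noncoding RNA, at 0.0459 and −0.15. Iapp, the amylin gene, was at 0.0185 and −0.0142 and Ins2 at −0.0142 and 0.00266, where very large counts make the intervals narrow. TMM scaling raised all ratios by 0.03 in the selected and by 0.11 in the other cells. After it, Rtn4, Iapp and Ins2 no longer had opposite signs. The interval of Ube2k in the other cells then took in 0, as did those of Lmna and Mt1 in the selected cells.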

How the results depend on the processing

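No paired analysis was possible because each group was 1 library. Of 359 summary values recomputed, 312 stayed within the limit set for them. Counts of genes higher and lower followed the limits: 20 and 16 without Ins1, Ins2 and Iapp in the total (14 and 10 remaining of those in the other cells), 17 and 20 at 20 CPM (12 and 11), 613 and 1087 at 10 UMIs (236 and 421), 39 and 32 at a lower fold limit (33 and 28) and 3 and 3 at 2-fold (1 and 2). With Pdyn at 0 UMIs 6 were higher, and without cells of 10 or more non-endocrine UMIs 3 lower ones remained. The selected share was 66.8% in virgin and 33.6% in multipara when the rule followed thinning, 45.7% and 14.3% with Pdyn at 0, 58.4% and 19.4% under 5% mitochondrial UMIs, and 45.7% in virgin without cells of 2 or more non-endocrine UMIs. Without cells holding Matn2 or Fmo1, which left 389 virgin and 47 multipara cells, 24 genes were higher, and medians were 0.26 (stress genes), 0.19 (heat shock), 0.18 (nuclear oxidative phosphorylation), 0.13 (ribosomal), 0.075 (mitochondrially encoded, reversed) and 0.0572 (cell cycle, reversed), and the cause was not tested. The mitochondrially encoded median was otherwise −0.0852 with TMM, −0.0834 with median-of-ratios factors, −0.0818 with Pdyn at 0, −0.0833 in equal depth bins, −0.0912 without insulin genes and Iapp, −0.17 after thinning, −0.0383 under 5% mitochondrial UMIs and −0.18 without cells of 2 or more non-endocrine UMIs. Held-out Nupr1 was at 4.92 and 14.0 CPM when 75% of the UMIs chose the cells, and at 11.8 CPM in virgin with another split. The ER folding and cholesterol medians stayed above 0 under every setting run. Genes at few UMIs per cell are limited by depth, and doublets can remain.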

Other observations

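Some selected cells held RNA of Rbp4, the retinol-binding protein gene, which is also a delta cell marker and was at 1185 CPM in virgin and 836 CPM in multipara alpha cells. Rbp4 was higher in the selected than in the other β cells of both libraries (log2 ratio 1.83 in virgin and 1.72 in multipara), a contrast tied to the rule and given without a test. It was at 62.6 CPM in virgin and 62.8 CPM in multipara selected cells. Cells with 3 or more Rbp4 UMIs, a limit chosen after the values were seen, were 13.4% of virgin selected cells (11.1 to 16.04) and 16.9% of multipara selected cells (12.2 to 22.5), against 5.17% and 5.50% of the other cells. After thinning to 10000 UMIs the shares were 6.98% and 6.85%, against 2.18% and 2.24%.

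These cells also held more Pyy, at 593 CPM against 94.8 CPM in the remaining virgin selected cells and at 521 against 99.7 CPM in the multipara ones. Gpx3 was at 96.9 against 21.4 CPM and at 130 against 61.3 CPM. Ppy, the pancreatic polypeptide gene, was at 416 against 229 CPM in virgin and at 449 against 220 CPM in multipara cells. Somatostatin was at 106 against 85.2 CPM in virgin and 65.0 against 66.8 CPM in multipara cells. Gcg, the main alpha cell hormone gene, was not higher, at 902 against 910 CPM in virgin and 564 against 575 CPM in multipara cells. Fmo1 was at 19.9 against 27.4 CPM in virgin and at 96.1 against 101 CPM in multipara cells. Igfbp7, a secreted growth factor-binding protein, and Lpl, lipoprotein lipase, were the other genes among the 5 highest in selected over other cells, with log2 ratios of 0.47 and 0.79 for Igfbp7 and 0.46 and 0.45 for Lpl. In alpha cells Pyy was at 11159 and 12916 CPM, Gpx3 at 1018 and 1186 CPM, Igfbp7 at 350 and 226 CPM and Lpl at 379 and 284 CPM, all above the selected β cells. At the other end, after Atf5, stood Ttc28, Sars, Cox6a2 and Creg1, with Cox6a2 at −0.44 in virgin and −0.89 in multipara cells. Whether doublets or free RNA had a part in these values was not tested.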
